A study of Mus musculus with 5 samples.

Results

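The axon guidance ligands and receptors were followed here as 67 autosomal protein-coding genes (the members) out of 21728 annotated ones. They were taken by gene symbol from the GENCODE M21 annotation of the mouse build mm10: the semaphorins (Sema), plexins (Plxn), Slits, Robo receptors, ephrins (Efna, Efnb), Eph receptors (Epha, Ephb), netrins (Ntn) and Unc5 receptors. Their 3 X-linked relatives Plxna3, Plxnb3 and Efnb1 were left out. The symbols also drew in Unc50 and Unc5cl, which are not netrin receptors. They stay in the counts over the 67 members and are kept apart by family, so that 36 ligands and 29 receptors remain. The data are H3K27me3 ChIP-seq peak lists, which record where histone H3 trimethylated at lysine 27 was found, from cultured dermal fibroblasts of E18.5 mouse embryos. The tested cells were Kdm6b-cKO fibroblasts (replicates 3 and 4), in which floxed Kdm6b, the gene of an H3K27me3 demethylase also called Jmjd3, is deleted by a Cre under Dermo1 (Twist2) in the dermal lineage. The control cells were WT fibroblasts (replicates 7 and 9), whose alleles are not described further in the labels. All cultures were grown in AmnioMAX medium after a sort for GFP, which the labels state for the WT samples as well. The study's methods give 2 skins for each kind of sample and do not say whether they came from different litters or days, so p-values measure only the spread between these cultures.

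Axon guidance cues steer growing axons and also shape vessels, epithelia and mesenchyme. Semaphorins signal through plexins, class 3 semaphorins usually with a neuropilin as co-receptor. Slits repel through Robo receptors, netrins attract through Dcc and repel through Unc5 receptors, and ephrins signal on contact through the Eph receptor tyrosine kinases. H3K27me3 is laid down by Polycomb repressive complex 2, often in broad domains over CpG-rich promoters of developmental genes that a cell type does not use.

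The peak lists held 44077 and 40565 peaks in Kdm6b-cKO replicates 3 and 4, against 29841 and 22597 in WT replicates 7 and 9, on the autosomes and the X chromosome. They covered 148.3 and 123.9 Mb in Kdm6b-cKO libraries, against 91.4 and 61.5 Mb in WT libraries. The study's methods state that the libraries were brought to a like read depth before peaks were called, and the lists themselves hold no read counts. Promoters of 12 fibroblast marker genes were marked in none of the 4 libraries, and those of 4 neuronal regulators were marked in all. Of the markers of other cell types, 4 and 4 of 6 keratinocyte promoters were marked in Kdm6b-cKO cells and 3 and 3 in WT, 1 of 4 endothelial (Kdr) and 1 of 4 immune promoters (Cd3e) in every library, 2 and 2 of 4 melanocyte and Schwann cell promoters in Kdm6b-cKO cells and 1 and 1 in WT, and 3 and 3 of 3 muscle promoters in Kdm6b-cKO cells and 1 and 1 in WT. The part of other cell types in the differences below was not tested.

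Many guidance genes carried H3K27me3 at the promoter in these fibroblasts, and the number was higher in both Kdm6b-cKO libraries than in either WT library. A promoter was taken as the 3 kb on either side of the transcription start site (TSS), and called marked when peaks covered at least 500 bp of it. By this measure 35 and 35 of the 67 promoters (52.2% and 52.2%) were marked in Kdm6b-cKO replicates 3 and 4, against 26 and 21 (38.8% and 31.3%) in WT replicates 7 and 9. Over all genes the marked shares were 26.4% and 24.9% in Kdm6b-cKO cells and 19.7% and 16.3% in WT. In all, 35 members were marked in at least 1 library, which is 52.2% of them, where 28.8% of all genes were. The mark was present in all 4 libraries at 21 members (31.3%), against 15.2% of all genes. Bulk chromatin cannot tell a mark on more of the cells from a denser mark on each cell.

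**Figure D1:**
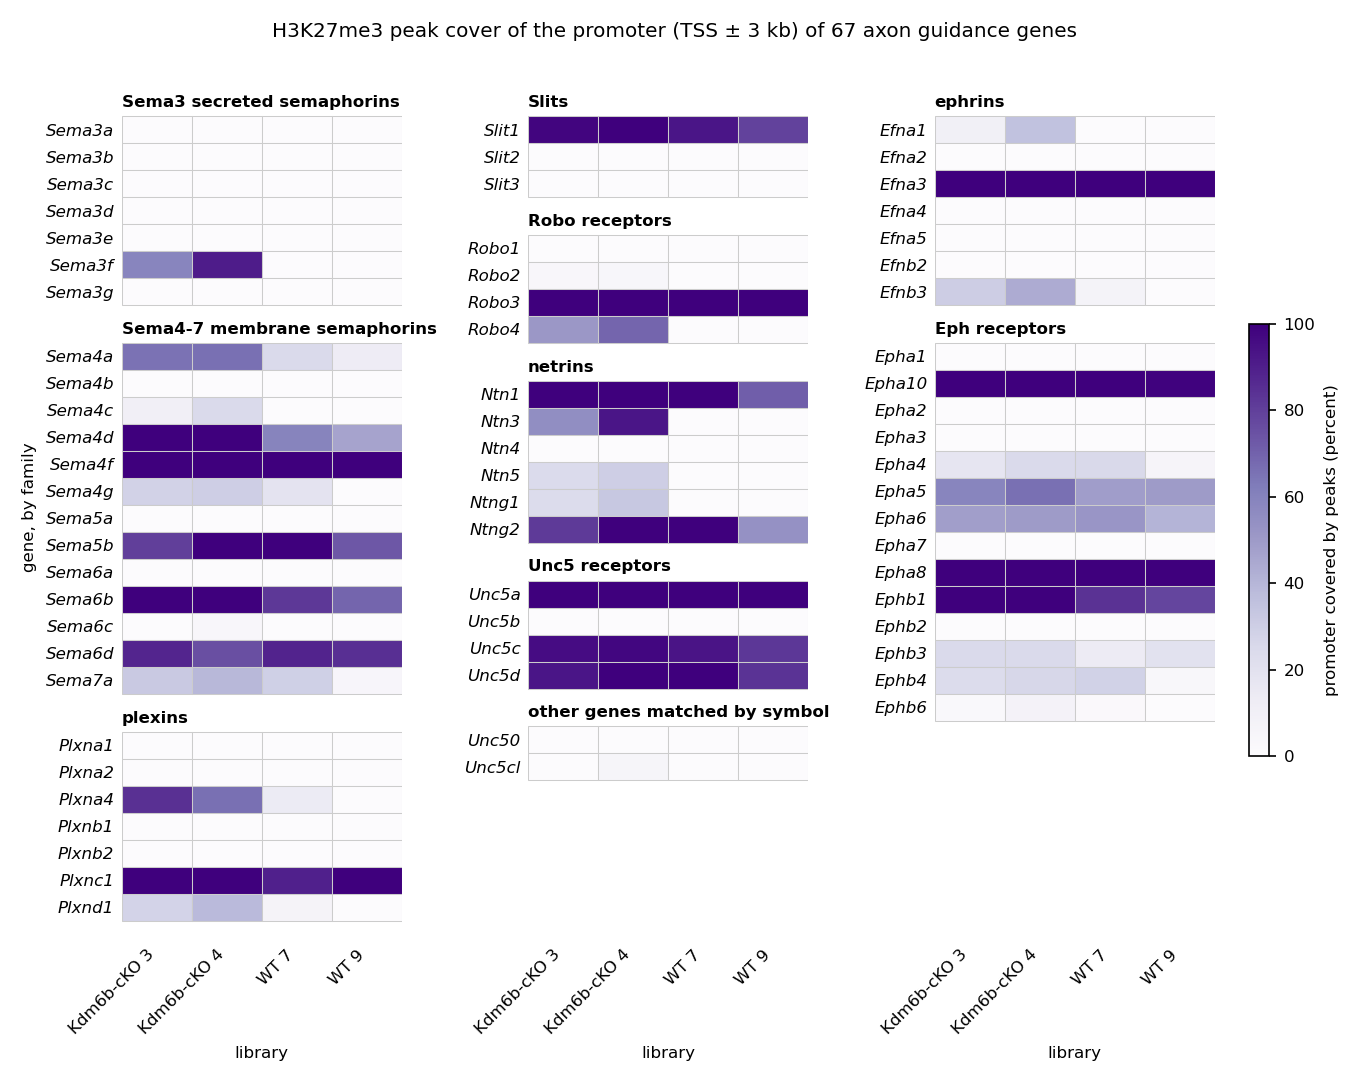
Percent of each promoter (TSS ± 3 kb) covered by H3K27me3 peaks in each of the 4 libraries (columns, Kdm6b-cKO left of WT), for the 67 genes in rows by family; darker purple is more of the promoter covered. Most of the 21 promoters marked in every library form dark rows, while Sema3f, Ntn3 and Robo4 are filled in the 2 Kdm6b-cKO columns and white in both WT columns.

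At 9 members the promoter was marked in both Kdm6b-cKO libraries and in neither WT library: Sema3f, Sema4c, Plxnd1, Robo4, Efna1, Efnb3, Ntn3, Ntn5 and Ntng1. They are 13.4% of the members, where 4.28% of all genes had this pattern, and 25.7% of the 35 marked members, where 14.9% of the 6251 marked promoters did. No member had the opposite pattern, which 0.069% of all genes showed. Marking in all 4 libraries was found for 60.0% of the marked members and 52.7% of all marked promoters. The remaining 5 marked members, Epha4, Ephb4, Sema4g, Sema7a and Plxna4, were marked in both Kdm6b-cKO libraries and in WT 7 but not in WT 9. Without WT 7 the count of promoters marked in Kdm6b-cKO alone was therefore 14, and it was 9 without each of the other libraries in turn. When each list was shortened to its strongest peaks so that all 4 covered the same length, the count was 3. In that setting 2 members had the opposite pattern, marked in both WT libraries and in neither Kdm6b-cKO library.

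These patterns were counted for ligands and receptors separately. Of 36 ligand genes, 10 were marked in every library (27.8%), 7 in Kdm6b-cKO alone (19.4%) and 17 in none. Of 29 receptor genes, 11 were marked in every library (37.9%), 2 in Kdm6b-cKO alone (6.90%, Plxnd1 and Robo4) and 13 in none. Over all genes, 15.2% were marked in every library and 4.28% in Kdm6b-cKO alone. The difference between ligands and receptors was not tested.

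The covered share of each promoter was compared with limma over all 6251 marked promoters, and 1 of the 35 tested members was called higher in Kdm6b-cKO at an adjusted p under 0.05. That is 2.86% of them, below the 7.93% of all tested promoters called higher. None was called lower, where 0.096% of all promoters were. At p under 0.05 before adjustment, limma gave 13 members higher (37.1%, against 25.6% of all tested promoters) and 0 lower. The median difference was 14.2 percentage points over the 35 members and 11.7 over all tested promoters. The 9 promoters marked in Kdm6b-cKO alone entered this test through the Kdm6b-cKO libraries alone. Of these, Sema3f, Sema4c, Robo4, Efna1, Ntn3, Ntn5 and Ntng1 had no covered base in either WT library, so their WT spread was 0. The called promoter, Ntn5, was called without either Kdm6b-cKO library but not without either WT library. The count of called members was 8 without Kdm6b-cKO 3, 7 without Kdm6b-cKO 4, 5 without WT 7 and 0 without WT 9. With a library left out, its genotype has 1 library, whose spread is assumed to be that of the other genotype. The shares of all promoters called in these settings are not given, so the counts describe the members alone. Of the members called without Kdm6b-cKO 3 and without Kdm6b-cKO 4, 7 and 7 had no covered base in either WT library, so the WT spread behind those calls was 0.

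Around the promoters, most members had more sequence under peaks in Kdm6b-cKO cells, in a share near that of all genes, and few passed the test. Within 25 kb of the TSS, a window of 50 kb, 46 of the 67 members (68.7%) had a peak in at least 1 library, as did 57.3% of all genes. Summed over the members, peaks covered 653.4 and 634.6 kb in Kdm6b-cKO cells, against 474.0 and 345.5 kb in WT. Of 45 members with at least 500 bp covered in some library, 33 (73.3%) lay higher in both Kdm6b-cKO libraries than in either WT library, where 65.3% of all 11829 tested genes did. Only Unc5d (2.22%) lay lower in both, where 1.67% of all genes did. The median difference was 5.27 kb for the members and 2.41 kb for all tested genes. Without WT 9 it was 2.72 kb for the members and 1.72 kb for all tested genes. At TSS ± 10 kb the medians lay close together, at 1.58 kb for the members and 1.48 kb for all tested genes.

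Limma called 5 of these 45 members higher in Kdm6b-cKO within 25 kb: Unc5a, Sema4a, Epha2, Ephb1 and Unc5cl, the last a gene matched by symbol alone. That is 11.1%, where 7.69% of all tested genes were called higher. It called 0 lower, as for all genes, where the share was 0%, and before adjustment, at p under 0.05, it gave 20 members higher (44.4%, against 33.7% of all tested genes) and 0 lower. The count moved with each library, as limma called 0 members without Kdm6b-cKO 3, 0 without Kdm6b-cKO 4, 0 without WT 9 and 12 without WT 7. The mean over all tested genes was 4.06 kb higher in Kdm6b-cKO cells (17.2 percentage points over all tested promoters), and with each library centred on its mean limma called 6 members higher and 1, Sema6d, lower. With peak lists of equal covered length 0 members were called, and the median difference was 2.24 kb, against 0.359 kb over all tested genes. The counts called in these other settings are given without the shares of all genes, and describe the members alone.

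**Figure D2:**
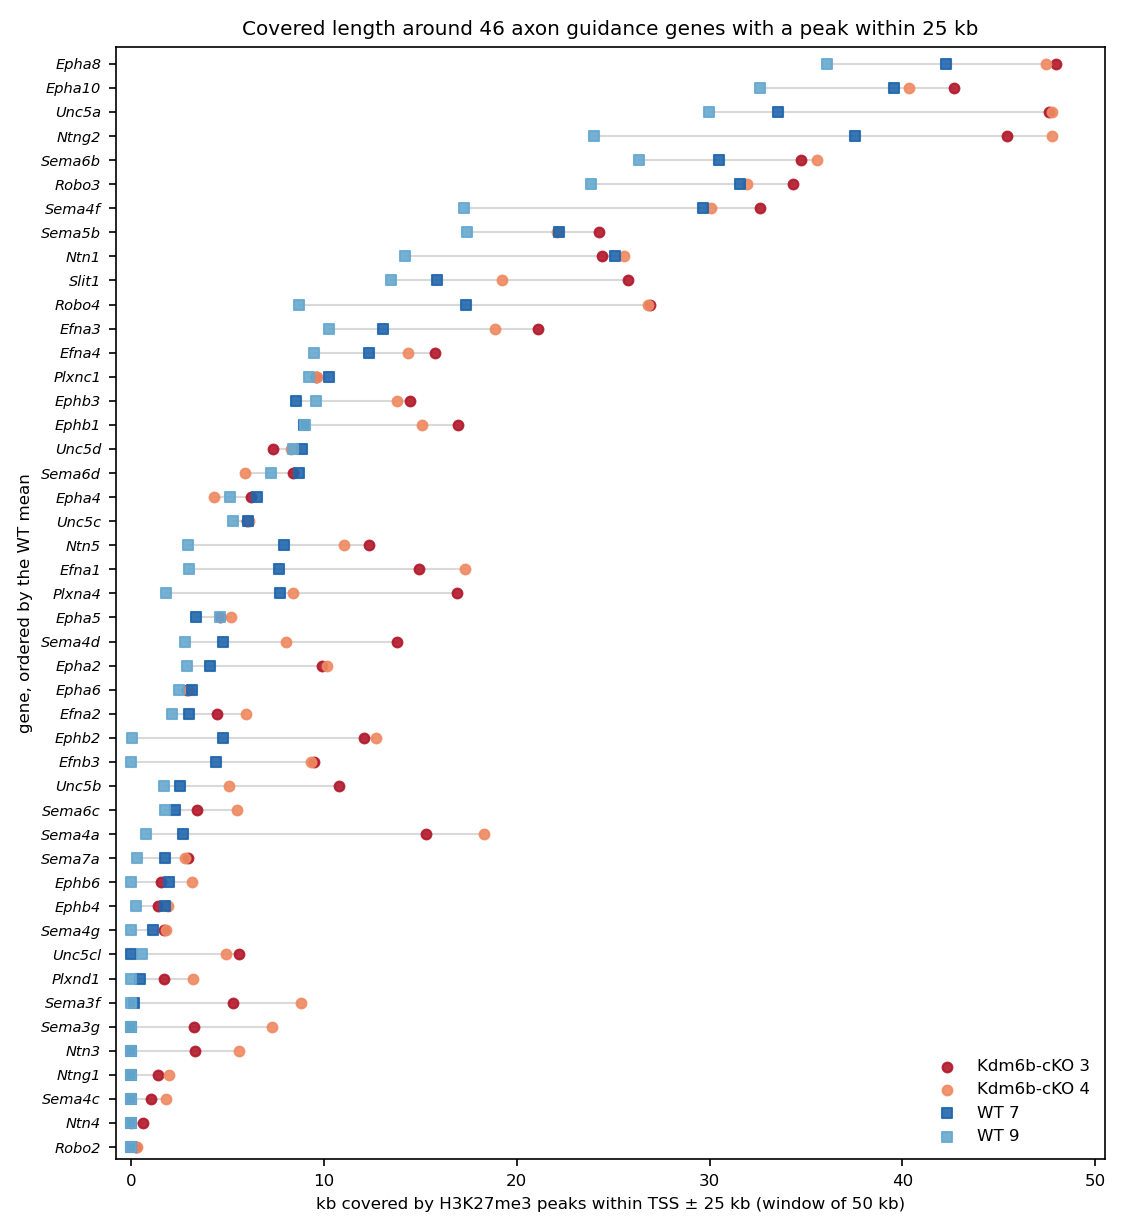
Kilobases covered by H3K27me3 peaks within 25 kb of the TSS, for each of the 46 members with a peak there, ordered by the WT mean; circles are the 2 Kdm6b-cKO libraries and squares the 2 WT libraries. Unc5a, Sema4a and Epha2 have both circles well to the right of both squares, while Unc5c, Unc5d, Epha6 and Plxnc1 have all 4 points close together.

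The promoter sequences of 8 members are shown as examples of the patterns, and are not a sample of them. Each is the stretch of 250 bases before to 50 bases after the RefSeq start on GRCm38.p6, written 5′ to 3′ on the strand of the gene, with every CG dinucleotide in capitals. CG reads the same on both strands. The promoter table of RefSeq held 58 of the 67 members, and over its 32851 promoters the median was 7 CG. Ntn5, the called promoter (chr7:45683772-45684071, plus strand), held 3 CG, a number that 76.7% of all promoters reach. Ntn3 (chr17:24209338-24209637, minus strand) and Robo4 (chr9:37401722-37402021, plus strand) were marked in Kdm6b-cKO alone and were added after their values were seen. They held 16 and 2 CG, which 33.0% and 85.9% of all promoters reach. Ntn5 and Robo4 had the fewest CG of the 7 members marked in Kdm6b-cKO alone that the table held.
Ntn5: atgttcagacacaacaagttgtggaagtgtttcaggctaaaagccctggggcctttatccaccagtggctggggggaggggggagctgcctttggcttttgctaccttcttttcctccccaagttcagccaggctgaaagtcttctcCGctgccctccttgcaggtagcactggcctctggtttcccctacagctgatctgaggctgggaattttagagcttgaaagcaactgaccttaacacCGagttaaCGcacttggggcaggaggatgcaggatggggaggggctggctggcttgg
Ntn3: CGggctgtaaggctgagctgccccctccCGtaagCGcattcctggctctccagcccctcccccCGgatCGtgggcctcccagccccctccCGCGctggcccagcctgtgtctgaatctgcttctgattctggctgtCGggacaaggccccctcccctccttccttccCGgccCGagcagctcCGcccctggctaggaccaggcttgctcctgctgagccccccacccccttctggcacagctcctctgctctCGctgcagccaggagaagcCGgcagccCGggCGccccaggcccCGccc
Robo4: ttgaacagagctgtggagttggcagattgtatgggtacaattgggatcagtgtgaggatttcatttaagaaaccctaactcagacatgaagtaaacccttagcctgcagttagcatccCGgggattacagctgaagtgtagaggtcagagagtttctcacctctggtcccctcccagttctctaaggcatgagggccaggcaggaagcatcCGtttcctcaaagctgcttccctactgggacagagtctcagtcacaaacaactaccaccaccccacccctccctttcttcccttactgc
The next 3 were covered in full in all 4 libraries. Epha8 (chr4:136956767-136957066, minus strand) held 56 CG, a number that 0.195% of all promoters reach. Unc5a (chr13:54949161-54949460, plus strand) held 37 CG and Robo3 (chr9:37433126-37433425, minus strand) held 17.
Epha8: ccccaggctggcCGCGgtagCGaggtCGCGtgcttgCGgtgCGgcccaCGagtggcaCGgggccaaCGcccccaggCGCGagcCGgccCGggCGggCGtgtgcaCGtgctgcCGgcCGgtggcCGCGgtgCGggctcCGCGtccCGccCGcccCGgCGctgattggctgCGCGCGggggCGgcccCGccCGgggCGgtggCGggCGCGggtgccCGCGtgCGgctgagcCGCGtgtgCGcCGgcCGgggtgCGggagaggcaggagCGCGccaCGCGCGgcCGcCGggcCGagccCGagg
Unc5a: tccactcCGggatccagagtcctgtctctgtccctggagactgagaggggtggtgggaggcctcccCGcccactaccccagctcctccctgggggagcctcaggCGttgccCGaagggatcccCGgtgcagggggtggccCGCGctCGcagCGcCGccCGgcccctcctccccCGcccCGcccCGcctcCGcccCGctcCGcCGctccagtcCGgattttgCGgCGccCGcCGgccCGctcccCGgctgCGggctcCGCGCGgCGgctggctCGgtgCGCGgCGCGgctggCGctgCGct
Robo3: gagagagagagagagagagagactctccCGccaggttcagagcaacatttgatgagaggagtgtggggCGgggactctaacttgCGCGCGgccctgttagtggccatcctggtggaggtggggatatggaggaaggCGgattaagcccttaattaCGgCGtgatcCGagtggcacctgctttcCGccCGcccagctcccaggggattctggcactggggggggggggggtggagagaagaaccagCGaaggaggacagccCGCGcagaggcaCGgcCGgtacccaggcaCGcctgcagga
The last pair had no peak within 25 kb in any library. Efna5 (chr17:62881268-62881567, minus strand) held 38 CG and Efnb2 (chr8:8661193-8661492, minus strand) held 35, which 4.95% and 6.95% of all promoters reach.
Efna5: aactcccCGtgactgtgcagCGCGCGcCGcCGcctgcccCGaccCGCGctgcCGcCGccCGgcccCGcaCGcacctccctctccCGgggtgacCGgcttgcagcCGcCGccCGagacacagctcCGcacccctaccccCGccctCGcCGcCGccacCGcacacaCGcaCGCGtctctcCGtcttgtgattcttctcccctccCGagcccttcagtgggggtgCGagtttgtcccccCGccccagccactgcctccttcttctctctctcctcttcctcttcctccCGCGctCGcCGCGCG
Efnb2: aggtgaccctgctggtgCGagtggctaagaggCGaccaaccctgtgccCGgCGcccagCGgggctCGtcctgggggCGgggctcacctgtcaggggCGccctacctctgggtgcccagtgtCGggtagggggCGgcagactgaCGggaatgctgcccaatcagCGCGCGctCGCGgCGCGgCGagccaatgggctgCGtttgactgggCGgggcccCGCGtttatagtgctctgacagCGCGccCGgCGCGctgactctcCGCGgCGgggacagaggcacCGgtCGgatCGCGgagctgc
A high CG number thus occurred with a full mark and with none. By pattern, the median was 21.5 CG for 18 members marked in every library, 19 for 7 marked in Kdm6b-cKO alone and 25 for 29 marked in none. The RefSeq start lay within 500 bp of the TSS used for the pattern in 50 of the 58 members, and farther off in the others, such as Sema4d and Robo1. Over those 50 the medians were 23 CG for 15 members, 17.5 for 6 and 26 for 25, in the same order of patterns.

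Over the wider TSS ± 3 kb the members had more CpG than all genes of the same pattern. Members marked in Kdm6b-cKO alone had a median of 31.3 CpG per kb, while all 929 genes of that pattern had 15.2. Members marked in every library had 28.2 CpG per kb, against 22.5 for all 3292 such genes, and unmarked members had 24.6, against 17.7 for all unmarked genes.

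Among the secreted class 3 semaphorins the mark was almost absent from WT cells, and Kdm6b-cKO cells had peaks near Sema3f and Sema3g. Sema3f encodes a repellent that binds neuropilin 2. Its promoter (gene at chr9:107681500-107710475, minus strand) was covered at 59.2% and 90.8% in Kdm6b-cKO cells, against 0% and 0% in WT. The difference was 75.025 ± 14.0 percentage points (limma SE), with a limma adjusted p of 0.113. This promoter entered the test through the Kdm6b-cKO libraries alone, and its WT spread was 0. Around it the WT libraries had 0.128 and 0 kb of peaks within 25 kb, so the mark stood on ground that was nearly free of it in WT. Sema3g had no marked promoter, but 3.25 and 7.29 kb within 25 kb in Kdm6b-cKO cells, against 0 and 0 kb in WT. Sema3a, Sema3b, Sema3c, Sema3d and Sema3e had no peak within 25 kb in any library.

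The membrane-bound semaphorins were more often marked, 6 of 13 in every library. Sema4a (chr3:88435959-88461182, minus strand), a membrane semaphorin with roles in immune cells and vessels, had 15.3 and 18.3 kb covered within 25 kb in Kdm6b-cKO cells, against 2.71 and 0.778 kb in WT. The difference of 15.0 ± 1.49 kb was called by limma (adjusted p = 0.0358), and most of it lay in the gene, where 13.4 and 17.1 kb were under peaks in Kdm6b-cKO cells, against 2.71 and 0.778 kb in WT. Its promoter was covered at 65.5% and 66.2% in Kdm6b-cKO cells, against 25.3% and 13.0% in WT (limma adjusted p = 0.063). With peak lists of equal covered length the sign at Sema4a turned, to -1.60 kb within 25 kb and -19.1 percentage points at the promoter.

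Sema4d, the ligand of plexin B1, had its promoter covered in full in both Kdm6b-cKO libraries and at 59.5% and 46.7% in WT (limma adjusted p = 0.065). Sema6b, a ligand of plexin A4, followed the same pattern with 100% and 100% in Kdm6b-cKO cells and 82.1% and 69.5% in WT. At Sema4c, a ligand of plexin B2, 11.0% and 25.4% of the promoter was under peaks in Kdm6b-cKO cells, against 0% and 0% in WT. Sema4f was covered in full everywhere, and Sema6d did not separate the genotypes, at 88.0% and 75.5% in Kdm6b-cKO cells and 88.5% and 84.8% in WT. Sema4b, Sema5a and Sema6a had no peak within 25 kb.

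Of the 7 plexins, the semaphorin receptors, 4 had no peak within 25 kb: Plxna1, Plxna2, Plxnb1 and Plxnb2. Plxna4, which receives class 3 and class 6 semaphorins, had its promoter covered at 84.4% and 66.4% in Kdm6b-cKO cells, against 14.1% and 0% in WT. The difference of 68.4 ± 10.1 percentage points had a limma adjusted p of 0.0826. Plxnd1, a receptor of Sema3e in endothelial cells, was covered at 28.0% and 38.4% in Kdm6b-cKO cells, against 7.22% and 0% in WT. Plxnc1, the receptor of Sema7a, was marked in all libraries and did not separate the genotypes, with 9.57 and 9.66 kb within 25 kb in Kdm6b-cKO cells and 10.3 and 9.20 kb in WT. Of the neuropilins, the co-receptors of class 3 semaphorins, Nrp1 had no peak within 25 kb, and Nrp2 had 8.07 and 6.75 kb in Kdm6b-cKO cells, against 3.66 and 0 kb in WT (limma adjusted p = 0.115).

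Among the Slits, Slit1, a repellent of the nervous system, carried the mark, while Slit2 and Slit3 had no peak within 25 kb. At Slit1 most of the promoter was covered in every library, at 98.3% and 100% in Kdm6b-cKO cells and 93.3% and 79.5% in WT. Along the gene, peaks covered 106.6 and 94.6 kb of its 143.4 kb in Kdm6b-cKO cells, against 57.3 and 40.3 kb in WT. That is 74.4% and 66.0% of the gene in Kdm6b-cKO cells, against 39.9% and 28.1% in WT. Gene bodies were not tested.

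Robo3 and Robo4 lie next to each other on chromosome 9, with starts 31.3 kb apart, so their windows share sequence. Robo3, which lets commissural axons cross the midline, had a fully covered promoter in all 4 libraries. Robo4 (chr9:37401897-37415115, plus strand), the Robo receptor of endothelial cells, had 51.4% and 69.3% of its promoter under peaks in Kdm6b-cKO cells, against 0% and 0% in WT. The difference of 60.4 ± 7.90 percentage points had a limma adjusted p of 0.0733. This promoter entered the test through the Kdm6b-cKO libraries alone, and its WT spread was 0. Within 25 kb, peaks took up 26.9 and 26.8 kb in Kdm6b-cKO cells, against 17.4 and 8.72 kb in WT, so that both WT libraries had the mark nearby. Within the gene of 13.2 kb, 11.5 and 12.4 kb were under peaks in Kdm6b-cKO cells, against 5.46 and 3.27 kb in WT. The peak inside the gene began 0.171 kb after the start in Kdm6b-cKO 3 and before the start in Kdm6b-cKO 4. It began 3.001 kb after the start in WT 7, just beyond the promoter window, and 4.97 kb after it in WT 9. Robo1 had no peak within 25 kb, and Robo2 had under 0.3 kb.

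**Figure D3:**
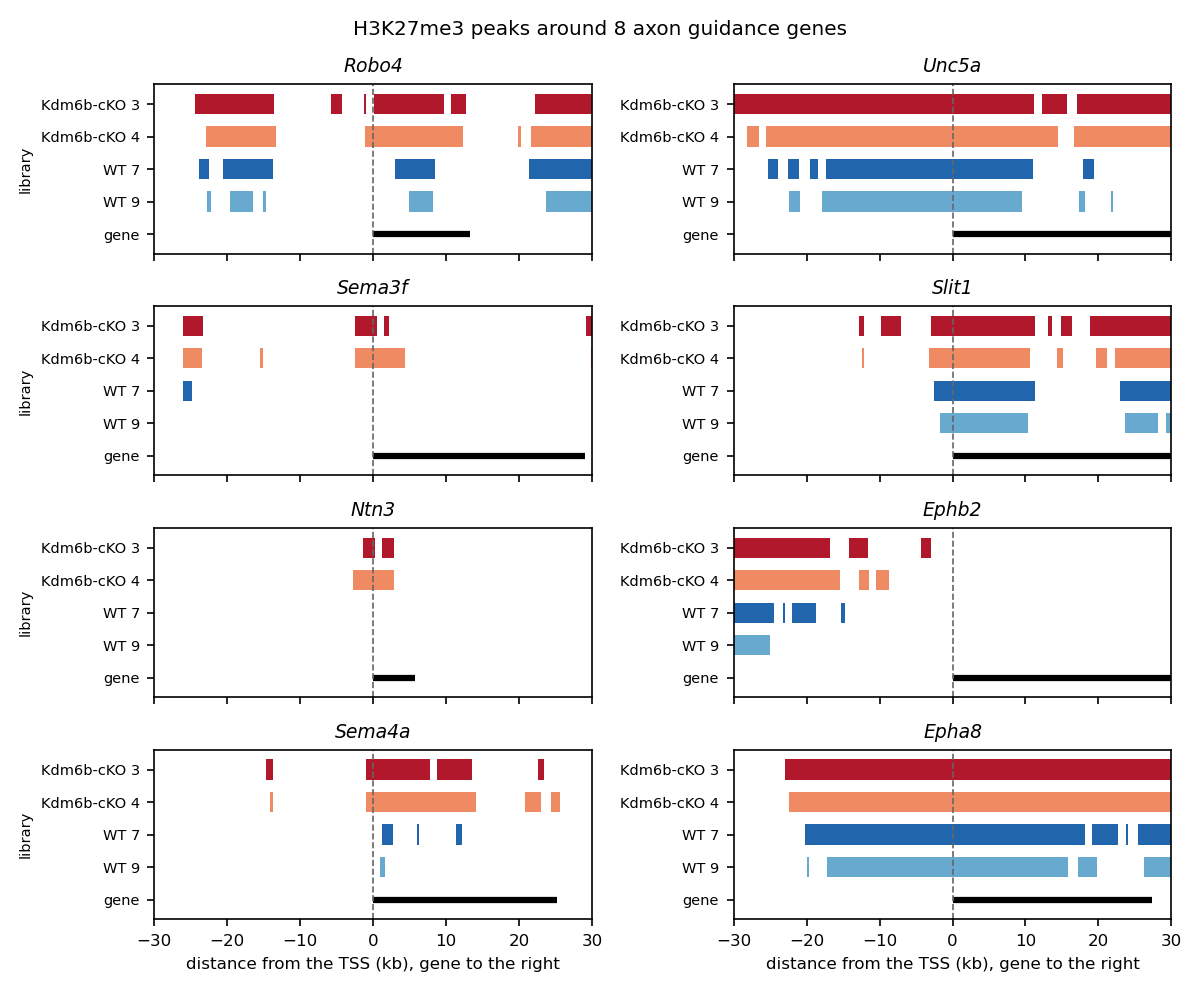
Peaks of each library (coloured bars, Kdm6b-cKO rows above WT rows) by distance from the TSS in kb, within 30 kb of 8 genes read left to right, with the gene as a black bar. At Robo4 and Sema4a the main Kdm6b-cKO bar inside the gene begins near the dashed line of the TSS (0.171 kb after it in Kdm6b-cKO 3 at Robo4) and the WT bars inside the gene begin farther in, while all 4 libraries also have bars upstream of Robo4; at Ephb2 all bars lie upstream of it; at Epha8 and Unc5a all libraries cover the TSS.

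Of the 6 netrins, 3 were marked in Kdm6b-cKO alone, a pattern that 4.28% of all genes had. The ephrins came next with 2 of 7, and the difference between families was not tested. Ntn5 (chr7:45684022-45694556, plus strand), a member of the netrin family, was the called promoter. It was covered at 24.5% and 30.3% in Kdm6b-cKO cells, against 0% and 0% in WT, a gain of 27.4 ± 2.64 percentage points (limma adjusted p = 0.049). The Ntn5 promoter entered the test through the Kdm6b-cKO libraries alone, and its WT spread was 0. The adjusted p was 0.173 without WT 7 and 0.24 without WT 9. The call was also lost with equal numbers of peaks (18.4 percentage points, adjusted p = 0.502), where limma called Sema6b instead, at the stricter peak threshold (0.518), after centring (10.2 percentage points, 0.435), with no filter (0.234) and at TSS ± 1 kb (0.619). Ntn3 (chr17:24203848-24209531, minus strand), a netrin made in peripheral ganglia, had a larger and less even difference, with 55.3% and 93.2% in Kdm6b-cKO cells, against 0% and 0% in WT (limma adjusted p = 0.143). No WT peak lay within 25 kb of Ntn3. Ntng1, a membrane-anchored netrin-G, was covered at 23.6% and 33.1% in Kdm6b-cKO cells, against 0% and 0% in WT, also with no WT peak within 25 kb.

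Ntn1, the floor plate attractant, was marked in every library, and its window did not separate the genotypes, with 24.4 and 25.6 kb in Kdm6b-cKO cells and 25.1 and 14.2 kb in WT. Ntng2, the other netrin-G, had 45.4 and 47.8 kb of its window under peaks in Kdm6b-cKO cells, against 37.5 and 24.0 kb in WT (limma adjusted p = 0.143). Along the Ntng2 gene of 58.5 kb, 51.1 and 49.7 kb were under peaks in Kdm6b-cKO cells, against 29.7 and 10.2 kb in WT.

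Of the netrin receptors, Unc5a (chr13:54949411-55006018, plus strand), a receptor for repulsion, showed the largest called difference. Its promoter was covered in full in all 4 libraries, and the window held 47.6 and 47.8 kb in Kdm6b-cKO cells, against 33.6 and 29.95 kb in WT. The difference was 15.9 ± 1.52 kb (limma adjusted p = 0.0348). Inside the gene of 56.6 kb the peaks covered 76.8% and 78.6% in Kdm6b-cKO cells, against 25.2% and 18.8% in WT. Within 10 kb of the TSS no such difference was seen (0.232 kb, limma adjusted p = 0.71), and that stretch was nearly filled in every library.

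The sister genes Unc5c and Unc5d were marked at the promoter in every library. The Unc5c promoter was covered at 95.9% and 97.9% in Kdm6b-cKO cells, against 93.5% and 82.6% in WT (limma adjusted p = 0.428). Within 25 kb the genotypes overlapped at Unc5c, and Unc5d was lower in both Kdm6b-cKO libraries. Unc5c had 6.01 and 6.12 kb within 25 kb in Kdm6b-cKO cells and 6.04 and 5.27 kb in WT, and Unc5d had 7.34 and 8.31 kb in Kdm6b-cKO cells and 8.85 and 8.39 kb in WT. Unc5b, the family member of endothelial cells, had no marked promoter, and peaks only upstream of its start, 10.8 and 5.07 kb in Kdm6b-cKO cells and 2.53 and 1.71 kb in WT. Dcc, the attractive netrin receptor, was marked in every library at 80.4% and 62.7% of the promoter in Kdm6b-cKO cells and 60.7% and 54.8% in WT. Its relative Neo1 had no peak within 25 kb except 1.12 kb in WT 7.

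Of the 7 ephrins, Efna1, Efna3 and Efnb3 had marked promoters. Efna1, Efna3 and Efna4 form a cluster on chromosome 3, with starts 41.8 kb and 15.1 kb apart, so their windows share sequence. Efna3 was covered in full in all libraries and Efna4 had no marked promoter. Efna1, a ligand of the receptor Epha2, was covered at 10.2% and 35.4% of the promoter in Kdm6b-cKO cells, against 0% and 0% in WT (limma adjusted p = 0.371), and had 14.9 and 17.3 kb within 25 kb in Kdm6b-cKO cells, against 7.67 and 2.98 kb in WT. Efnb3, a transmembrane ephrin of the spinal cord midline, was covered at 30.6% and 43.9% in Kdm6b-cKO cells, against 7.53% and 0% in WT, with 9.46 and 9.34 kb in its window in Kdm6b-cKO cells, against 4.42 and 0 kb in WT. Efna5 and Efnb2 had no peak within 25 kb.

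No Eph receptor promoter was marked in Kdm6b-cKO alone, and 6 of 14 were marked in every library. The 2 called Eph receptors gained cover in different places. Epha2 (chr4:141301240-141329384, plus strand), the receptor of Efna1, had no peak downstream of its start in any library. All of its cover lay upstream, 9.91 and 10.2 kb in Kdm6b-cKO cells, against 4.08 and 2.88 kb in WT, a difference of 6.56 ± 0.793 kb (limma adjusted p = 0.0418). Ephb1 (chr9:101922128-102354693, minus strand), which sends retinal axons to the same side at the optic chiasm, had a marked promoter, covered at 100% and 100% in Kdm6b-cKO cells and 84.0% and 78.1% in WT. Its window held 17.0 and 15.1 kb in Kdm6b-cKO cells, against 8.94 and 8.998 kb in WT, a difference of 7.05 ± 0.957 kb (limma adjusted p = 0.0464).

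Epha8 carried the longest WT cover of any member. Its window held 48.0 and 47.5 kb in Kdm6b-cKO cells, against 42.2 and 36.1 kb in WT (limma adjusted p = 0.112). The peak over the Epha8 promoter was 127.0 and 100.3 kb long in Kdm6b-cKO cells, against 38.4 and 33.1 kb in WT. In Kdm6b-cKO 3 this peak ran past the end of Epha8, over the complement genes C1qa, C1qb and C1qc, to 16.8 kb from the start of Ephb2, which lies 120.8 kb away. In Kdm6b-cKO 4 its edge was 43.0 kb from that start, and in WT 7 and WT 9 the edges were 102.6 and 105.0 kb from it. These are edges of the unbroken peak over the promoter, and both WT libraries had further peaks past them. The next began 19.2 kb after the Epha8 start in WT 7 and 17.2 kb after it in WT 9. Counted from the Ephb2 start, with upstream negative, the nearest WT peaks ended at -14.7 kb (WT 7) and -24.955 kb (WT 9). Ephb2 itself had no marked promoter, and only upstream cover of 12.1 and 12.7 kb in Kdm6b-cKO cells, against 4.75 and 0.045 kb in WT (limma adjusted p = 0.068). Ephb3 also had cover on the upstream side alone, 14.5 and 13.8 kb in Kdm6b-cKO cells and 8.53 and 9.56 kb in WT (limma adjusted p = 0.0536).

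Of the other Eph receptors, several did not separate the genotypes. Epha6 had 2.92 and 2.98 kb within 25 kb in Kdm6b-cKO cells and 3.14 and 2.46 kb in WT, and Epha4 had 6.20 and 4.29 kb in Kdm6b-cKO cells and 6.52 and 5.12 kb in WT. Epha10, a receptor without kinase activity, was covered at 98.9% or more of the promoter in every library. Epha1, Epha3 and Epha7 had no peak within 25 kb.

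The 2 genes matched by symbol alone were Unc50, which had no peak within 25 kb, and Unc5cl. Unc5cl (chr17:48454901-48539714, plus strand), a cytoplasmic protein that resembles part of Unc5c, had 5.62 and 4.92 kb in Kdm6b-cKO cells, against 0 and 0.553 kb in WT. The difference of 4.99 ± 0.723 kb was called by limma (adjusted p = 0.0499). At equal covered length it was -0.277 kb.

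By place, the 9 promoters marked in Kdm6b-cKO alone fell into sets of 3. Robo4, Efna1 and Ntn5 had peaks within 25 kb in both WT libraries, Sema3f, Efnb3 and Plxnd1 in WT 7 only, and Sema4c, Ntn3 and Ntng1 in neither. As the promoter lies inside the window, its selection also sets the difference within 25 kb, and the median mean cover of 7.05 kb in Kdm6b-cKO cells and 0.216 kb in WT is a description. Members marked in every library had a median of 19.98 kb in Kdm6b-cKO cells and 11.7 kb in WT. At 11 members the promoter was not marked although a peak lay within 25 kb. Their peaks lay upstream alone at Epha2, Ephb2, Unc5b and Ntn4, downstream alone at Robo2, Sema3g and Efna2, and on both sides at Ephb6, Sema6c, Efna4 and Unc5cl. In 21 members the window also held the start of another protein-coding gene, and peaks there cannot be assigned to one gene.

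**Figure D4:**
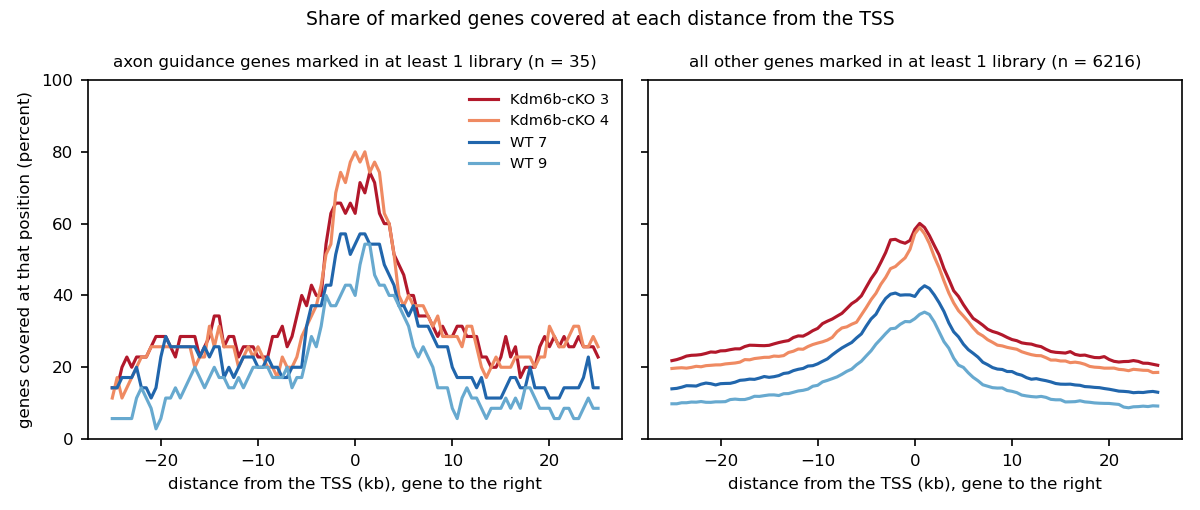
Percent of genes covered by a peak at each distance from the TSS in kb (the gene to the right), one line per library, for the 35 marked axon guidance genes on the left and all other 6216 marked genes on the right. At the TSS 62.9% and 80.0% of the guidance genes were under peaks in Kdm6b-cKO cells, against 54.3% and 40.0% in WT. For the other genes the values were 58.4% and 57.2% in Kdm6b-cKO cells and 39.7% and 33.5% in WT. Both sets were chosen as marked at this same promoter in at least 1 library. All 35 guidance genes were marked in both Kdm6b-cKO libraries, against 26 and 21 in WT. That choice partly fixes the higher Kdm6b-cKO lines at the TSS, so the lines are a description.

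The peaks over promoters marked in every library were strong ones. Within each list, their median rank by the −log10 q that the peak caller gave stood at percentile 96.8 and 96.9 in Kdm6b-cKO cells and 95.2 and 90.5 in WT. Their median length was 13.7 and 13.8 kb in Kdm6b-cKO cells, against 8.78 and 6.30 kb in WT. Peaks over promoters marked in Kdm6b-cKO alone were weaker and shorter, at percentiles 64.1 and 72.9 in the 2 Kdm6b-cKO lists and with median lengths of 1.62 and 2.27 kb. Their median fold over local background was 2.97 and 3.05, against 4.14 and 4.13 for members marked in every library in the same lists.

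At 21 members no library had a peak within 25 kb. They are 5 secreted and 3 membrane-bound semaphorins, 4 plexins, 2 Slits, Robo1, 2 ephrins, 3 Eph receptors and Unc50, with no netrin and no Unc5 receptor among them. At 20 of the 21 the gene body was free of peaks as well, the exception being Epha3.

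A list of 41 further genes of these pathways, co-receptors and signalling proteins outside the families, was described in the same way. Their promoters were marked in every library at 15 (36.6%, against 15.2% of all genes). They were marked in Kdm6b-cKO alone at 3, Ablim3, Ngef and Rgma (7.32%, against 4.28% of all genes). Cdon was marked in WT alone, a pattern that 0.069% of all genes had. Gpc1 was marked in 3 libraries, and 21 promoters were marked in none. Limma called 2 of 20 tested promoters higher (10.0%, against 7.93% of all tested promoters) and 0 lower. At p under 0.05 before adjustment, limma gave 4 promoters higher (20%, against 25.6% of all tested promoters) and 0 lower. Ngef (ephexin), an exchange factor that acts below Epha4, was covered at 48.1% and 49.1% in Kdm6b-cKO cells, against 5.55% and 0% in WT (limma adjusted p = 0.0273). As it was marked in Kdm6b-cKO alone, the Ngef promoter entered the test through the Kdm6b-cKO libraries alone. Its call is among the 2 counted above. Gpc1, a glypican that binds Slits, was covered at 37.5% and 40.5% in Kdm6b-cKO cells, against 9.07% and 4.20% in WT (limma adjusted p = 0.0391). Within 25 kb limma called 2 of 28 higher (7.14%, against 7.69% of all tested genes) and 0 lower. Before adjustment it gave 9 higher there (32.1%, against 33.7% of all tested genes) and 0 lower. The shares called after adjustment, at the promoter and within 25 kb, are near those of all features. Crmp1, a mediator of semaphorin signals, had 35.3 and 35.2 kb under peaks in Kdm6b-cKO cells, against 15.4 and 12.4 kb in WT (limma adjusted p = 0.028). Dscaml1, a cell adhesion protein related to Dscam, had 34.4 and 29.6 kb in Kdm6b-cKO cells, against 8.76 and 9.73 kb in WT (limma adjusted p = 0.0325).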

How the data were processed

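H3K27me3 ChIP-seq peak lists of 2 Kdm6b-cKO and 2 WT cultures were used, grouped by sample title; the input has no peak list and was not used here. Per the study's methods and the submitters' processing notes, the authors aligned reads with Bowtie2 2.3.5.1 to mm10, subsampled the libraries to a like depth and called broad peaks in each library with MACS2 2.2.7.1. Each deposited list gives peak positions, a display score, a fold ratio over local background, a −log10 p-value and a −log10 q-value, all as the authors' peak caller wrote them. The score was not used. No read counts were used, so no counting interval is given.

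Covered length was taken over TSS ± 3 kb and TSS ± 25 kb, with 1 TSS per gene of GENCODE M21. Shares were compared with limma 3.58.1 (R 4.3.3; lmFit, eBayes) over all genes with at least 500 bp covered in at least 1 library; p-values were adjusted by Benjamini-Hochberg, and 0.05 was the threshold. SE is that of the limma fit, with 2 libraries a group. The steps were tested on simulated data; where simulated shares were held between 0 and 100%, the share of false calls exceeded the nominal level. Genes were named if called, if marked in 1 genotype alone, if largest in difference in a family, or if among the 5 longest in WT; others were named after their values were seen. The members and gene lists were chosen with earlier results of these data known. Promoter sequences and CpG are of GRCm38.p6 (RefSeq). Alternatives were equal numbers of peaks, equal covered length, a −log10 q of at least 3, centring on the library mean, no filter, other windows and thresholds, and leaving out each library.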

Additional observations from a re-analysis of the deposited data

How the results depend on the processing

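The directions at the promoter and within 25 kb held for most named members, and the calls did not. Over all alternatives, the values of the named members kept their side of the threshold and did not turn sign in 308 cases. They passed the threshold newly in 38, fell short of it in 48 and turned sign in 11, of which 6 after centring. At equal covered length 29 members were tested at the promoter, against 35 in the main setting. Promoters that dropped out there, such as Efna1, Efnb3, Ntn5 and Plxna4, are not in these counts for that setting. A value of 0 in either setting was not counted as a turn of sign. The Epha8 promoter, for example, had a difference of 0 and of -17.2 percentage points after centring. The 1 member called higher at the promoter became 2 at equal covered length, 2 at the stricter peak threshold, 6 after centring on the library mean, 0 with no filter and 3 at TSS ± 1 kb, and ranged from 0 to 8 when 1 library was left out. The 5 called within 25 kb became 3 with equal numbers of peaks, 0 at equal covered length, 1 at the stricter threshold, 0 with no filter and 1 at TSS ± 10 kb, and ranged from 0 to 12 when 1 library was left out. With no filter more genes are adjusted for. All these counts of calls are given without the shares of all genes called in the same setting. After centring, 1 member, Sema6d, was called lower within 25 kb. Promoters marked in Kdm6b-cKO alone numbered 3 at equal covered length, against 2 marked in WT alone, and 9 to 14 when 1 library was left out. The median difference within 25 kb was 2.24 kb at equal covered length, against 0.359 kb over all tested genes. It was 1.58 kb at TSS ± 10 kb (all tested genes 1.48 kb) and 7.03 kb at TSS ± 50 kb (all tested genes 3.62 kb). When 1 library was left out it was 2.72 to 5.74 kb, against 1.72 to 3.19 kb over all tested genes. Centring takes the same 17.2 percentage points or 4.06 kb from every gene, so it turns the sign of every smaller positive difference. This was so at the promoters of Epha10 (-16.6 percentage points), Ntng2 (-3.02) and Slit1 (-4.40), and within 25 kb at Ntng1 (-2.36 kb), Plxnd1 (-1.83 kb) and Sema4c (-2.65 kb). At equal covered length it turned at Sema4a (-19.1 percentage points and -1.60 kb), Plxna4 (-0.893 kb) and Unc5cl (-0.277 kb). The Ntng2 promoter ranged from -9.0 percentage points without WT 9 to 37.3 without WT 7. Apart from the filter and centring, the cause was not tested. No paired analysis was possible because the groups share no replicate number. The libraries were subsampled to a like depth per the study's methods, and the lists give no read counts with which to check it.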
